A study of Mus musculus with 30 samples.

Results

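The collagen genes of mouse brain endothelial cells (ECs) were followed from the intact vessel into primary culture. Every gene symbol made of "Col", a number, the letter a and a further number was taken, which gave 44 genes of the 21820 protein-coding genes in the RNA-seq files. By the kind of assembly their proteins form, these were 11 fibrillar, 6 basement membrane network, 6 beaded filament, 3 short chain network, 9 FACIT (fibril-associated), 2 multiplexin, 4 transmembrane and 3 other collagens.

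All mice were adult males. The acutely isolated cells came from brains of Tie2-GFP mice, in which GFP marks ECs, and were sorted into 2 libraries of GFP-positive cells (acute ECs) and 2 libraries of GFP-negative cells. The study formed its adult brain EC data by joining a cerebrum set made for it with an earlier published cerebellum set. Region and data set may therefore enter the spread of the acute libraries. The cultures were brain ECs held for 8 days in serum on wells coated with type I collagen, after puromycin had been used to kill cells without the efflux pump P-glycoprotein. RNA-seq covered 6 WT wells and 4 wells with stabilized beta-catenin. WT wells 1 and 2 were C57BL/6J cells isolated with papain (method A), and WT wells 3 to 6 were Ctnnb1flex3/+;Tie2-GFP cells isolated by Dounce homogenization and collagenase/dispase (method B). The stabilized wells were Ctnnb1flex3/+;Pdgfb-CreER;Tie2-GFP cells, in which the EC-driven Cre removes an exon that beta-catenin needs for its degradation, with wells 1 and 2 by method A and wells 3 and 4 by method B. The Ctnnb1flex3 mice with and without Cre had received 100 ug of 4HT at postnatal day 10, and for the C57BL/6J mice the study's wording can be read either way. ATAC-seq, which maps accessible chromatin, covered 2 acute EC, 6 WT (2 by method A and 4 by method B) and 2 stabilized libraries (both by method B). The methods are those of the study's Methods and the genotype labels, whereas one of its figure legends places WT wells 5 and 6 in method A, and the within-method values below rest on the former. Wells were paired within an experiment and brains were pooled, so that p-values measure the spread between wells and sorts.

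Collagens are secreted proteins in which 3 chains wind into a triple helix. In a brain capillary, ECs and pericytes share a basement membrane whose core is a network of type IV collagen made of the chains of Col4a1 and Col4a2, whereas fibrillar collagens such as types I and III are mainly products of fibroblasts in the meninges and around larger vessels. The chains are hydroxylated and glycosylated in the endoplasmic reticulum, folded with the help of dedicated chaperones, exported in large carriers, trimmed by proteases and then crosslinked.

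Library totals were between 24284843 and 94686456 estimated counts, and collagen transcripts took between 0.208 and 1.90% of them. Acute libraries were read as single reads of 75 cycles and cultures as read pairs of 36 cycles (150 cycles at another facility for WT wells 3 and 4), so read type and culture cannot be told apart. Levels are given as deposited TPM, a per-length abundance scaled to an equal total in every library. Nuclear protein-coding genes held only 26.5 to 63.1% of the TPM in 12 libraries but 94.3 and 94.1% in WT wells 3 and 4, so TPM of these 2 wells is not on the same footing as the rest. Where an order of libraries turned on this, the value is also given as coding TPM, which is TPM rescaled over the nuclear protein-coding genes and was chosen after seeing the data. EC markers (8 genes) summed to 1350 to 5175 TPM in the acute ECs and cultures and to 108 and 99.6 in the GFP-negative cells. Pericyte markers (10 genes, led by Rgs5 and Vtn) summed to 553 and 573 TPM in the acute ECs, 412 and 797 in the GFP-negative cells and 5.7 to 24.7 in the cultures, where Vtn was at most 0.445 TPM but Cspg4 was at 1.84 to 6.84, against 3.45 and 4.50 in acute ECs. Erythrocyte markers (5 genes) summed to 5448 and 41099 TPM in the acute ECs, 1368 and 15185 in the GFP-negative cells and at most 1.39 in the cultures. In coding TPM the erythrocyte sums of the acute ECs were 16903 and 101489. Astrocyte markers (6 genes) summed to 467 and 87.7, 1448 and 3534, and 3.36 to 45.8 TPM in the same order of groups. The part of these cells in the acute EC levels was not tested. In bulk RNA, fewer cells of a type and less RNA per cell cannot be told apart.

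Collagen transcripts were dominated by a handful of genes. Of the 44 genes, 18 reached a TPM of 10 in any library and 9 stayed under a TPM of 1 in every library. A TPM of at least 1 in every library of the group was found for 23 genes in GFP-negative cells, 8 in acute ECs, 11 in WT cultures and 10 in stabilized cultures. In acute ECs the order by median was Col4a1, Col4a2 and Col9a3, and the ranges of Col4a1 and Col4a2 overlapped. In WT cultures it was Col4a1, Col4a2, Col18a1, Col5a2 and Col8a1, where neighbouring ranges overlapped except that Col8a1 stayed below Col5a2 and Col18a1 below Col4a2. In coding TPM the WT medians of Col5a2 and Col18a1 changed places, at 249.9 and 203.6, and their ranges overlapped on both scales.

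**Figure D1:**
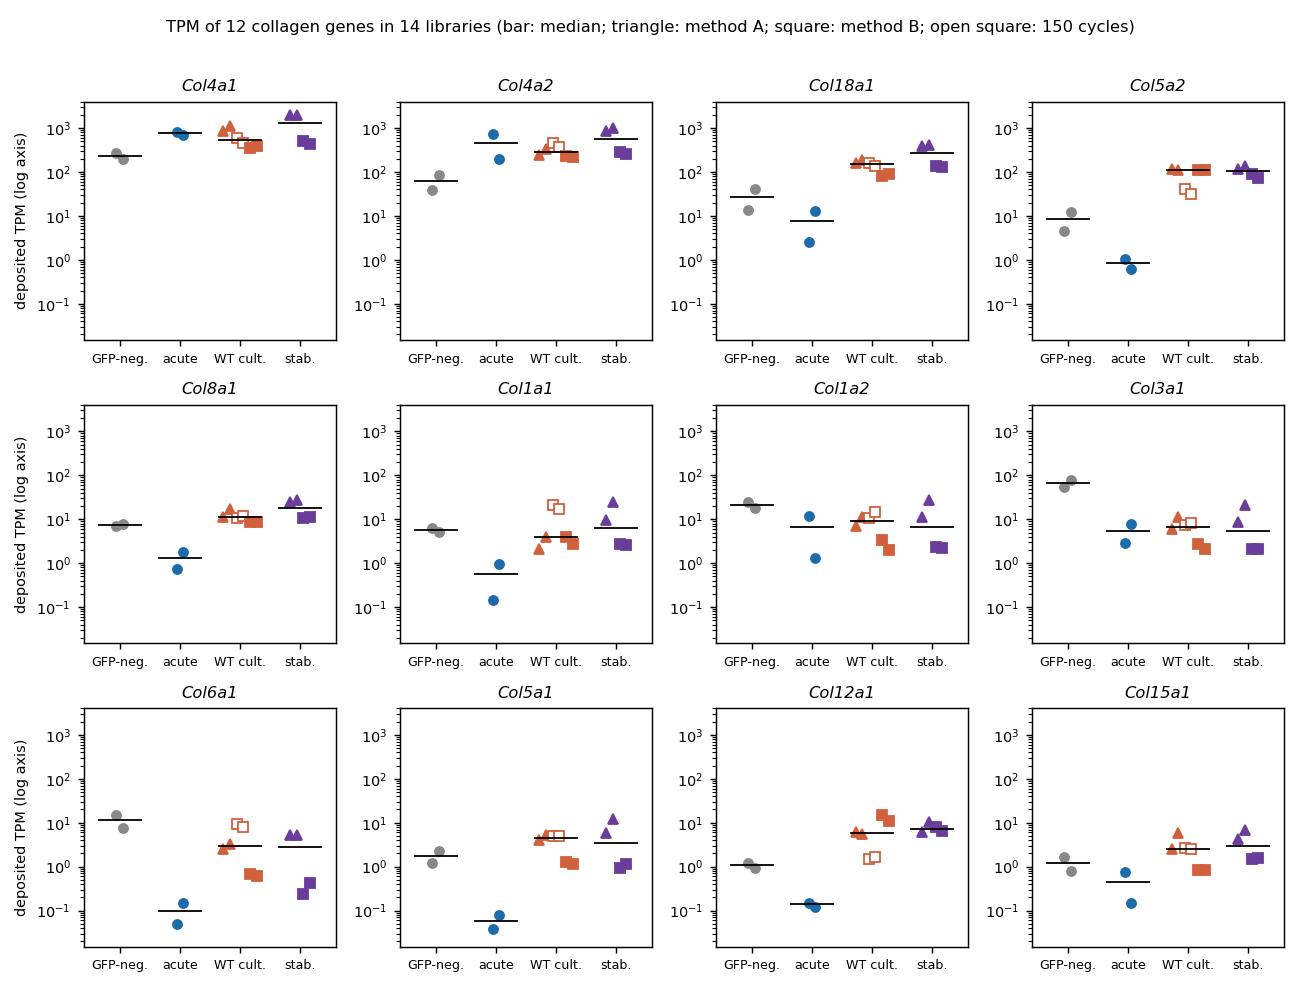
Deposited TPM (log axis) of 12 collagen genes in the 14 RNA-seq libraries, by group, with the group median as a bar. Triangles are method A wells, squares method B wells, open squares the 150-cycle wells and circles acutely isolated cells. Col5a2 sits at 0.626 and 1.05 in acute ECs and at 31.7 or more in every culture.

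The share of each class in the summed collagen TPM followed from these levels. Basement membrane network collagens held 95.6 and 94.8% in acute ECs, 59.1 and 45.0% in GFP-negative cells, 72.0 to 79.5% in WT cultures and 75.1 to 82.8% in stabilized cultures. Fibrillar collagens held 1.03 and 1.42% in acute ECs and 6.43 to 14.8% in WT cultures. Multiplexins held 0.2 and 1.33% in acute ECs and 10.0 to 12.9% in WT cultures. The 4 groups did not overlap in the share of the basement membrane network except for the WT and stabilized cultures. The sum itself was 1622 and 962 TPM in acute ECs, 531 and 647 in GFP-negative cells, and 825 to 1798 in WT cultures. In coding TPM it was 5034 and 2375 in acute ECs, 2008 and 1826 in GFP-negative cells, and 1156 to 4104 in WT cultures. Acute ECs and WT cultures thus overlapped over all annotated transcripts on both scales. In coding TPM the WT cultures also overlapped the GFP-negative cells, and the WT method B wells, at 1156 to 2057, lay below both acute ECs. Protein-coding transcripts held only 41.5 and 62.6% of the sum in acute ECs and 76.3 and 71.2% in GFP-negative cells, but 94.0 to 99.8% in WT cultures.

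**Figure D2:**
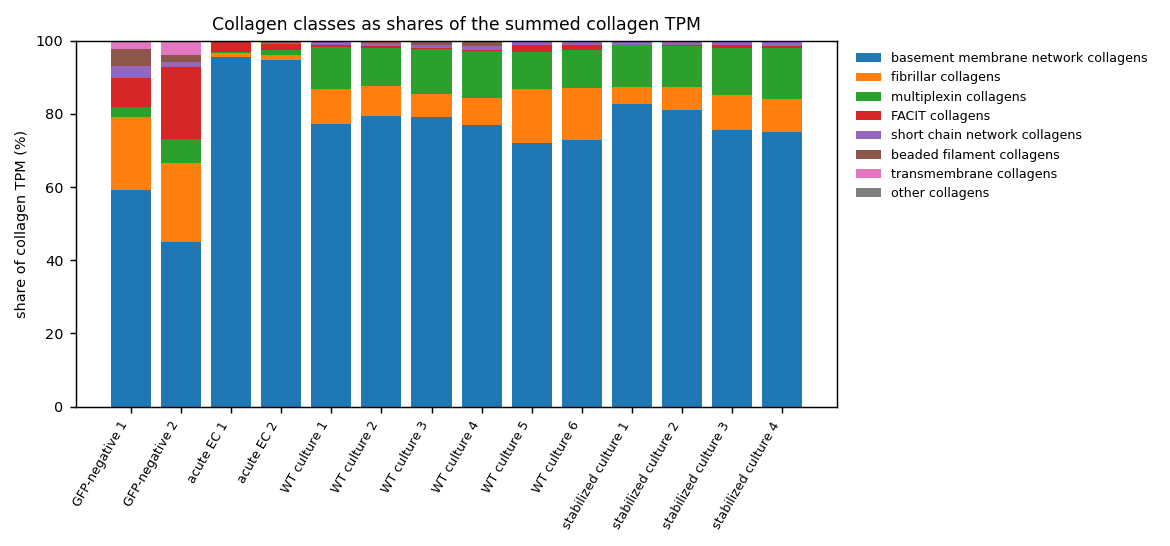
Stacked bars give the share (%) of each collagen class in the summed collagen TPM of each of the 14 RNA-seq libraries. Blue (basement membrane network) fills 94.8% or more of the acute EC bars, and orange (fibrillar) and green (multiplexin) widen in all 10 culture bars.

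Culture was compared with acute isolation to ask which collagen genes change when ECs leave the brain. Counts were compared with edgeR's quasi-likelihood test and Benjamini-Hochberg adjustment over all 13785 genes tested, and calls needed an adjusted p below 0.05, a log2 fold change beyond 1 in either direction and 5 TPM or more in each library of the higher group. Of the 36 collagen genes tested, 3 were called higher in WT culture (Col5a2, Col18a1 and Col8a1), against 13.5% of all genes, and 0 were called lower, against 10.2%. By adjusted p alone, 11 were higher and 8 lower, against 23.9 and 21.3% of all genes, and the counts at an unadjusted p under 0.05 were also 11 and 8. DESeq2 also called 3 higher and 0 lower. Over the collagen genes the median of the log2 fold changes was 0.06, and over all genes 0.10.

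Acute ECs were also compared with the GFP-negative cells, and this comparison uses the same acute EC libraries as the one above. Whether same-numbered libraries came from the same brains is not stated, and the fit was unpaired. Of 40 collagen genes tested, 2 were called higher in acute ECs (Col4a1 and Col4a2), against 8.3% of 15101 genes, and 6 were called lower (Col1a1, Col1a2, Col3a1, Col6a1, Col8a1 and Col18a1), against 7.56%. By adjusted p alone, 4 were higher and 24 lower, against 9.93 and 19.7% of all genes. Over the collagen genes the median of the log2 fold changes was -2.90, and over all genes -0.06.

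**Figure D3:**
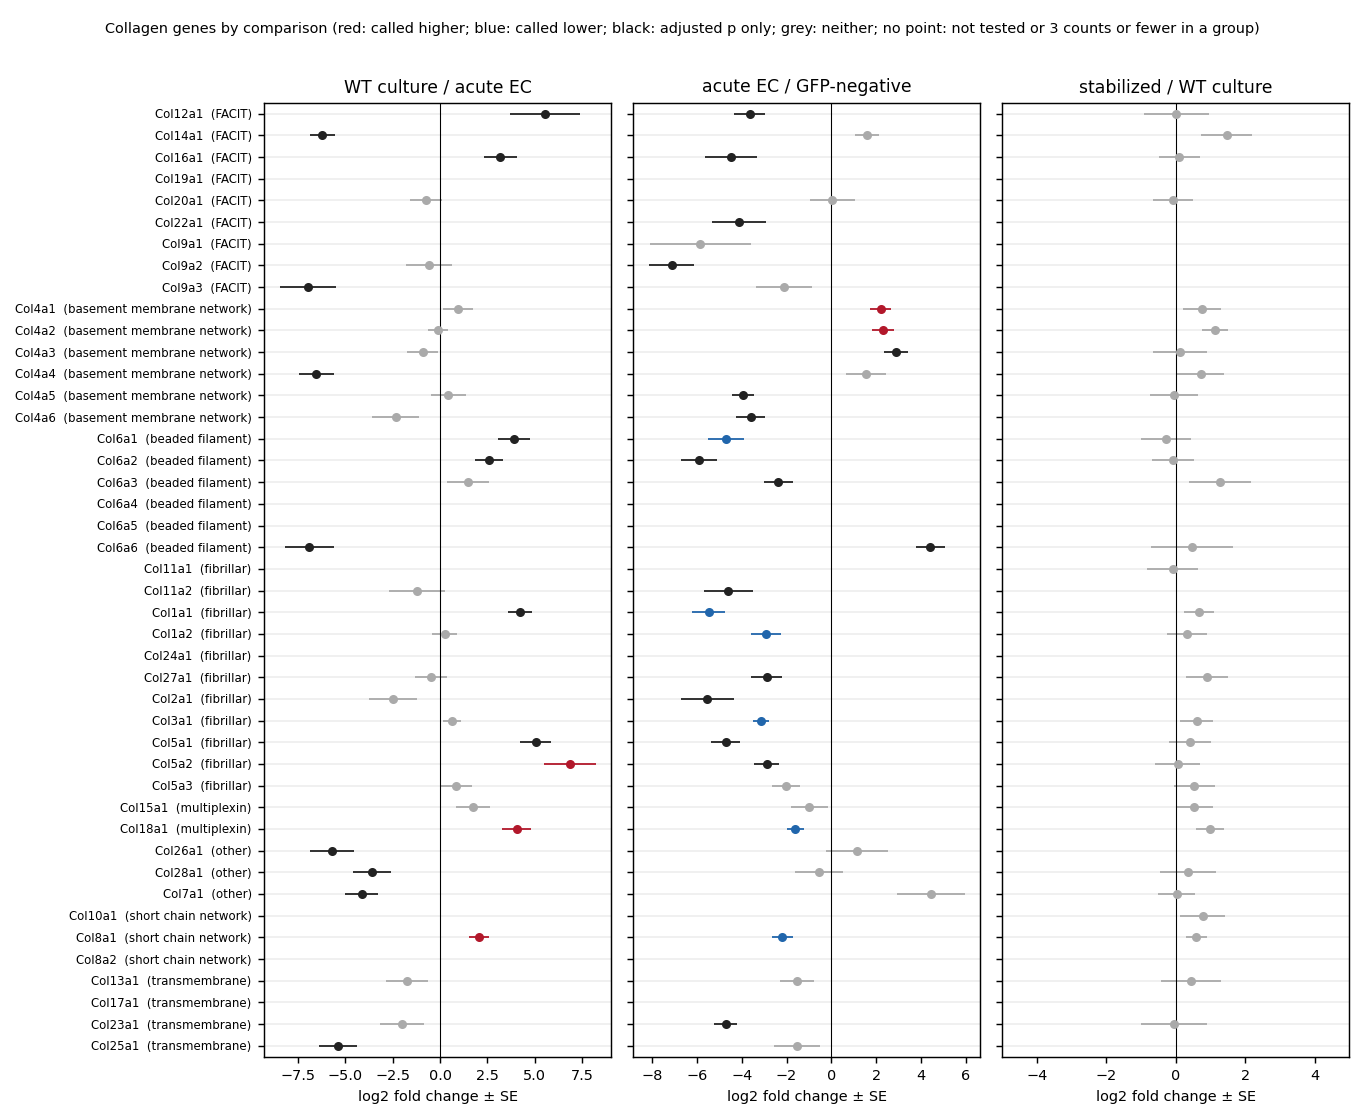
Log2 fold changes ± SE (edgeR) of the collagen genes in the 3 RNA-seq comparisons, with genes in rows by class. Red and blue points were called higher and lower, black points passed the adjusted p alone, and grey points did not, while genes that were untested or had 3 counts or fewer in a group have no point. Red points are Col5a2, Col18a1 and Col8a1 in the left panel and Col4a1 and Col4a2 in the middle panel, and the right panel has none.

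Col4a1 and Col4a2 encode the chains of the common type IV collagen. Col4a1 lies at chr8:11198423-11312826 on the minus strand and Col4a2 at chr8:11312805-11449287 on the plus strand (GRCm38), so that the 2 genes start head to head and their first annotated bases overlap. The overlap is shown here because both genes are read outward from it, with capitals marking a GC box (GGGCGG), the binding site of Sp1-like factors:
Col4a1 and Col4a2 start overlap, chr8:11312805-11312826, plus strand: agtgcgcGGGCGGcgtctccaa
Col4a1 stood at 807 and 711 TPM in acute ECs and 269 and 199 in GFP-negative cells. In the WT cultures it ranged from 354 to 1098 with a median of 525. The stabilized wells held 2030, 2026, 509 and 440 TPM. Acute ECs lay above the GFP-negative cells without overlap, whereas the WT cultures spread across the acute EC values, with the method A wells highest. In coding TPM the WT cultures were at 489 to 2458 and the acute ECs at 2503 and 1757. The log2 fold change was 2.20 ± 0.45 (SE) for acute ECs against GFP-negative cells (edgeR, adjusted p = 0.0166) and 0.95 ± 0.81 for WT culture against acute ECs (adjusted p = 0.357).

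Col4a2 stood at 727 and 197 TPM in acute ECs and at 38.5 and 85.3 in GFP-negative cells. The WT cultures ranged from 214 to 466 with a median of 288, and the stabilized wells held 867, 1012, 280 and 253. The WT values lay between those of the 2 acute EC libraries, and in coding TPM they were at 396 to 717 against 2256 and 486. Acute ECs were higher than GFP-negative cells by 2.29 ± 0.50 on the log2 scale (edgeR, adjusted p = 0.0194), and WT culture differed from acute ECs by -0.11 ± 0.55 (adjusted p = 0.884). Within method A wells the culture difference of Col4a1 was 1.84 (adjusted p = 0.0266, edgeR) and within method B wells 0.16 (adjusted p = 0.840), and for Col4a2 the values were 0.30 and -0.36.

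The transcripts behind these 2 genes differed between the acute and cultured libraries. The full-length Col4a1 transcript (6615 bases) held 97.4% or more of the Col4a1 counts in every culture. In the acute ECs it held 24.4 and 43.5%, and a 6487-base transcript annotated for nonsense-mediated decay held 49.9 and 31.4%. A 545-base Col4a1 transcript with an internal start held 10.9 and 16.4% of the acute EC counts but 47.6 and 57.9% of the TPM. By TPM, the full-length transcript therefore stood at 35.6 and 45.7 in acute ECs and 331 to 869 in WT cultures. For Col4a2, the full-length transcript (6450 bases) was at 133 and 97.8 TPM in acute ECs and 214 to 466 in WT cultures, and short retained-intron transcripts held the rest of the acute signal. How Salmon divides the reads among these transcripts in single and paired libraries was not tested. With protein-coding transcripts only, the log2 difference of Col4a1 between acute ECs and GFP-negative cells was 1.26 (edgeR, adjusted p = 0.0606), and the call was lost. With an offset for transcript length, the culture difference of Col4a1 was -0.81 in place of 0.95, neither of which was called.

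**Figure D4:**
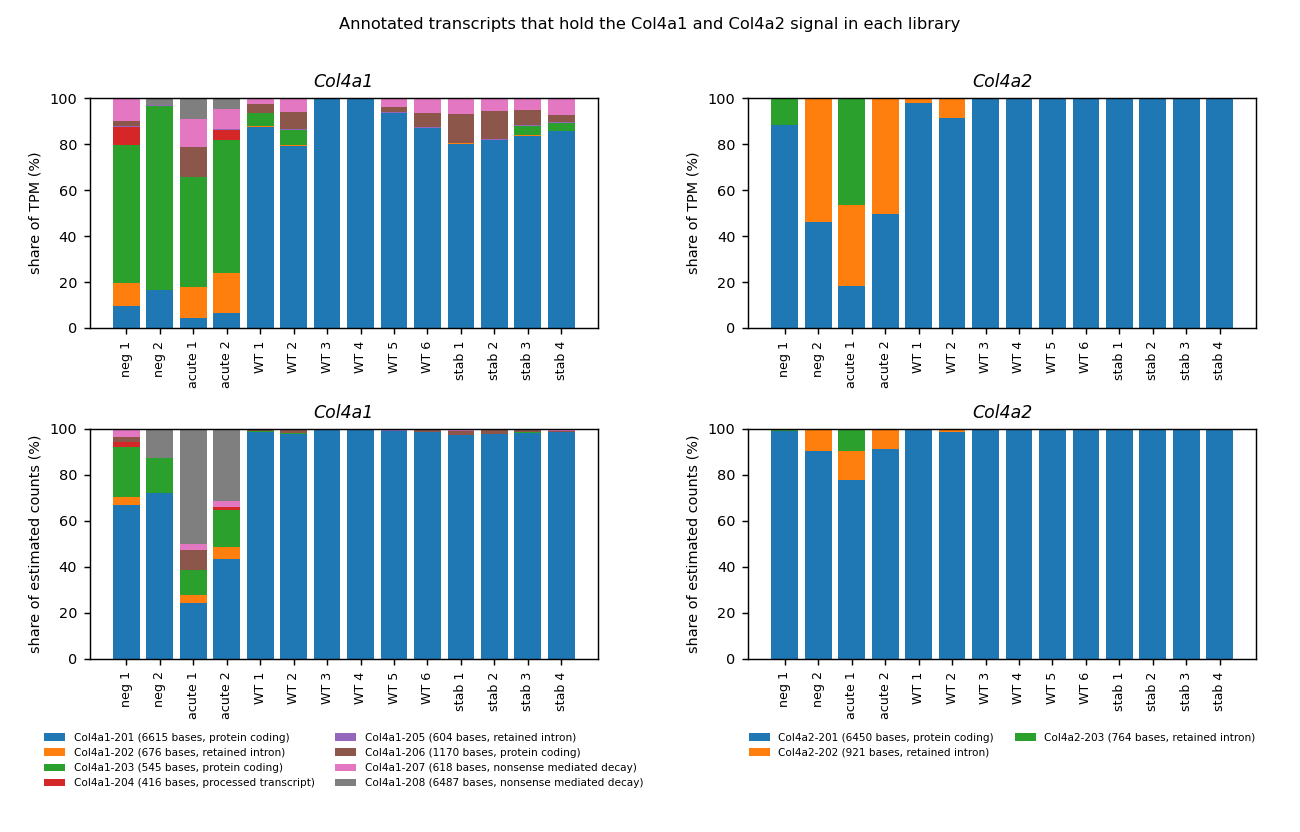
Share (%) of the TPM (top) and of the estimated counts (bottom) of Col4a1 and Col4a2 held by each annotated transcript in the 14 RNA-seq libraries. Blue, the full-length transcript of either gene, fills 97.4% or more of the Col4a1 count bars of the cultures and 24.4 and 43.5% of those of the acute ECs.

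The other 4 type IV chains, which are known from the kidney glomerulus, inner ear and other specialised basement membranes, were far less abundant. Col4a3 was at 2.24 and 2.34 TPM in acute ECs, 0.367 and 0.484 in GFP-negative cells and 1.65 to 9.57 in WT cultures. Its difference between acute ECs and GFP-negative cells, 2.89 ± 0.52 on the log2 scale, passed the adjusted p (0.011, edgeR) but not the TPM minimum. Col4a4 was at 14.5 TPM in the first acute EC library and 0.281 in the second, and at most 0.0538 in the cultures. In that first library 98.8% of its TPM lay on a retained-intron transcript. Its log2 difference of -6.54 ± 0.93 in culture (adjusted p = 0.000859, edgeR) did not meet the TPM minimum. Col4a5 and Col4a6 were at 4.69 to 4.88 and 1.10 to 1.20 TPM in GFP-negative cells, and their log2 differences in acute ECs were -3.95 and -3.61 (adjusted p = 0.00354 and 0.0111, edgeR).

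Col18a1, a multiplexin of basement membranes whose C-terminal fragment is endostatin, was called higher in culture. It stood at 2.51 and 12.6 TPM in acute ECs and at 13.8 and 40.9 in GFP-negative cells. The WT cultures ranged from 81.7 to 183 with a median of 150.4, and the stabilized wells held 395, 413, 137 and 127. Every culture lay above all 4 acutely isolated libraries, in TPM and in coding TPM. Col18a1 was higher in WT culture than in acute ECs by 4.04 ± 0.74 on the log2 scale (edgeR, adjusted p = 0.00277), and acute ECs differed from GFP-negative cells by -1.61 ± 0.38 (adjusted p = 0.0261). The culture difference was 4.76 within method A and 3.47 within method B. The call against GFP-negative cells was lost on leaving out GFP-negative replicate 1 (-1.46), GFP-negative replicate 2 (-1.73) or acute EC replicate 1 (-1.43).

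The gene at chr10:77052178-77166548 (minus strand) has 5 annotated transcripts. The 5063-base transcript, which begins at the upstream start, was at 72.2 to 161 TPM in WT cultures, whereas the long transcripts from internal starts, of 5595 and 4791 bases, reached at most 0.430 and 0.874 TPM in any of the 14 libraries. Col15a1, the other multiplexin, was at 0.74 and 0.152 TPM in acute ECs and 0.853 to 5.83 in WT cultures, and its log2 difference of 1.76 ± 0.89 did not pass (edgeR, adjusted p = 0.136).

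Col5a2 encodes a chain of type V collagen, a minor fibrillar collagen that seeds and limits fibrils of type I. It was at 1.05 and 0.626 TPM in acute ECs and 4.6 and 12.4 in GFP-negative cells. Of the 1.05 and the 12.4, 78.3 and 76.0% lay on a 356-base retained-intron transcript. The WT cultures ranged from 31.7 to 118 with a median of 109, and the stabilized wells held 119, 136, 91.4 and 74.3. The lowest culture, WT well 4, was far above both acute ECs, and the 2 lowest WT values were those of the 150-cycle wells. The log2 fold change in culture was 6.85 ± 1.36 (edgeR, adjusted p = 0.00399), with 7.33 within method A and 6.53 within method B. Its difference between acute ECs and GFP-negative cells, -2.88 ± 0.56, passed the adjusted p (0.0135) but not the TPM minimum.

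Col5a1, the usual partner chain of Col5a2, was at 0.0379 and 0.0791 TPM in acute ECs and 1.14 to 5.23 in WT cultures with a median of 4.54. Its log2 difference of 5.04 ± 0.84 (edgeR, adjusted p = 0.00172) missed the TPM minimum, with WT well 1 at 4.05 and the 36-cycle method B wells at 1.27 and 1.14. Col5a2 thus stood above Col5a1 in each of the 10 cultures. Col5a3 was at 0.815 to 2.28 TPM in WT cultures and 0.482 and 0.363 in acute ECs, and did not pass.

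The genes of the main fibril-forming collagens were higher in GFP-negative cells than in acute ECs. Col3a1 was at 54.9 and 77.0 TPM in GFP-negative cells and 2.90 and 7.67 in acute ECs, a log2 difference of -3.14 ± 0.36 (edgeR, adjusted p = 0.00301). Of the GFP-negative TPM, 78.7 and 47.9% lay on a 737-base protein-coding transcript, and the full-length Col3a1 transcript (5564 bases) was at 11.5 and 11.9 TPM against 1.12 and 1.25. Col1a2 was at 24.5 and 18.4 TPM against 11.9 and 1.34, with -2.92 ± 0.66 (adjusted p = 0.0224), and 89.2% of the 11.9 lay on a retained-intron transcript. Col1a1 was at 6.27 and 5.2 TPM against 0.146 and 0.984, with -5.49 ± 0.73 (adjusted p = 0.00459). The 2 groups did not overlap for any of the 3 genes. The call for Col1a2 was lost with an offset for transcript length (-1.29) or with limma on log2(TPM + 1) (-2.02).

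In the WT cultures these genes varied by experiment. Col1a1 ranged from 2.09 to 20.8 TPM with a median of 4.04, and its log2 difference from acute ECs, 4.22 ± 0.63, passed the adjusted p (0.00105, edgeR) but not the TPM minimum. Col1a2 ranged from 2.04 to 14.97 TPM with a median of 9.06 and differed by 0.24 ± 0.64 (adjusted p = 0.783). Col3a1 ranged from 2.08 to 11.1 with a median of 6.76 and differed by 0.65 ± 0.48 (adjusted p = 0.297). The 2 highest Col1a1 values, 20.8 and 17.5, were those of the 150-cycle wells, in TPM and in coding TPM. Fibroblast and meningeal markers (10 genes, led by Cdh11 and Mfap5) summed to 17.6 and 20.95 coding TPM in those 2 wells and 9.45 to 20.03 in the other WT wells. Stabilized well 2 had the highest sum of the cultures, 33.5 against 5.99 to 17.4 in the other stabilized wells, and also the highest culture values of Col1a1, Col1a2 and Col3a1, at 24.6, 28.1 and 21.2 TPM. In GFP-negative cells the marker sum was 189 and 179.7 coding TPM, and in acute ECs 11.2 and 36.6. Of these markers, Dpt and Slc6a13 were at 0 in all 10 cultures, and Lum and Pdgfra were at most 0.119 and 0.615 TPM there. Mfap5 was at 0 in both acute ECs and at 1.18 to 8.40 TPM in WT cultures, and Cdh11 at 0.786 and 2.48 and at 2.36 to 7.30. The part of other cells in these values was not tested.

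Col2a1 and Col11a2, which with Col9 genes are best known from cartilage, were at 2.54 and 10.0 and at 4.06 and 8.06 TPM in GFP-negative cells and at most 0.361 in every EC library. Their log2 differences in acute ECs were -5.53 ± 1.20 and -4.61 ± 1.10 (edgeR, adjusted p = 0.0191 and 0.0257). Col2a1 in WT culture differed from acute ECs by -2.49 ± 1.28 (adjusted p = 0.142). Col11a1 had 0 counts in both acute ECs and 0.341 to 1.26 TPM in WT cultures, at least 210-fold higher when 3 counts over the acute group are taken as its limit. It was at least 125-fold higher in GFP-negative cells by the same limit. Col27a1 was at 3.86 to 5.58 TPM in GFP-negative cells and at most 0.852 in cultures. Col24a1 did not exceed 0.0157 TPM in any library.

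Col8a1 encodes a chain of the short chain network collagen VIII, which is made by vascular cells and in the cornea. It was at 0.748 and 1.84 TPM in acute ECs and 6.87 and 7.63 in GFP-negative cells. The WT cultures ranged from 8.52 to 17.1 with a median of 11.0, and the stabilized wells held 24.9, 27.4, 10.7 and 11.5. Every culture was above both acute ECs. In TPM every culture was also above both GFP-negative libraries, but in coding TPM the WT cultures were at 11.6 to 37.4 and the GFP-negative cells at 25.9 and 21.6. The log2 fold change was 2.06 ± 0.53 in culture (edgeR, adjusted p = 0.0124) and -2.18 ± 0.46 for acute ECs against GFP-negative cells (adjusted p = 0.0178). Without acute EC replicate 1 the culture difference was 1.75 and no longer passed (adjusted p = 0.0947), and within methods A and B it was 2.64 and 1.66. The call against GFP-negative cells was lost without GFP-negative replicate 1 (-2.02) or GFP-negative replicate 2 (-2.33).

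Its partner chain Col8a2 was at 10.3 and 1.59 TPM in GFP-negative cells and at most 0.0285 in every EC library. Summed over the group, 5660 counts in GFP-negative cells stood against 1 count in acute ECs, a ratio of 5402 with an exact 95% interval of 969 to 213395 that covers counting error only. Col10a1, known from hypertrophic cartilage, was at most 0.3 TPM in any library. It had 0 counts in acute ECs, and WT cultures were at least 7.2-fold higher.

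Of the beaded filament (type VI) genes, Col6a1 was at 15.04 and 7.75 TPM in GFP-negative cells and 0.0485 and 0.145 in acute ECs, a log2 difference of -4.72 ± 0.80 (edgeR, adjusted p = 0.00931). Of the GFP-negative TPM, 12.5 and 6.42 (83.2 and 82.9%) lay on a 925-base retained-intron transcript, and the TPM minimum was met only with it. In WT cultures Col6a1 ranged from 0.603 to 9.58 with a median of 2.89, and the difference from acute ECs, 3.90 ± 0.84, passed the adjusted p (0.00574) but not the TPM minimum. Col6a2 followed the same pattern at lower levels, with 8.27 and 3.54 TPM in GFP-negative cells, 0.0672 and 0.0729 in acute ECs and 0.287 to 4.71 in WT cultures. For both genes the 150-cycle wells were the highest of the WT cultures. Col6a3 did not pass in culture, Col6a4 and Col6a5 were at most 0.0851 TPM in any library, and Col6a6 was highest in acute ECs at 0.596 and 1.44 TPM.

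Among the FACIT collagens, Col12a1, which binds the surface of type I fibrils, was at 0.152 and 0.123 TPM in acute ECs and 1.51 to 14.9 in WT cultures with a median of 5.85. Its log2 difference of 5.54 ± 1.84 passed the adjusted p (0.0358, edgeR) but not the TPM minimum, since the 150-cycle wells were at 1.51 and 1.62, and against GFP-negative cells it was -3.66 ± 0.69 (adjusted p = 0.0127) in acute ECs. Col14a1 was at 2.70 and 14.1 TPM in acute ECs and 0.0322 to 0.3 in WT cultures, a log2 difference of -6.21 ± 0.66 (adjusted p = 0.000252), which misses the TPM minimum in the first acute library. Against GFP-negative cells, at 1.67 and 2.85 TPM, acute ECs differed by 1.59 ± 0.54 (adjusted p = 0.0735).

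Col9a3 was at 32.3 and 109 TPM in GFP-negative cells, 41.8 and 0.884 in acute ECs and at most 0.673 in cultures. Of the 41.8, 99.99% lay on a retained-intron transcript. It differed by -6.96 ± 1.48 in culture (edgeR, adjusted p = 0.00542) and by -2.13 ± 1.24 between acute ECs and GFP-negative cells (adjusted p = 0.254). Col9a2 was at 3.66 and 13.3 TPM in GFP-negative cells and 0.0512 and 0.0276 in acute ECs, with -7.14 ± 1.0 (adjusted p = 0.00524), and differed by -0.56 ± 1.21 in culture (adjusted p = 0.726). Col16a1 rose in culture by adjusted p alone, from 0.0554 and 0.0736 to 0.178 to 1.12 TPM. Col9a1, Col19a1, Col20a1 and Col22a1 were at most 1.14 TPM in ECs.

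The transmembrane and remaining collagens were low in culture. Col23a1, a transmembrane collagen, was at 4.72 and 15.9 TPM in GFP-negative cells, 0.467 and 0.219 in acute ECs and at most 0.218 in cultures, with log2 differences of -4.72 ± 0.51 in acute ECs against GFP-negative cells (edgeR, adjusted p = 0.00267) and -2.01 ± 1.16 in culture (adjusted p = 0.186). Col13a1 was at 6.63 and 5.34 TPM in GFP-negative cells and at most 0.727 in ECs. Col25a1, Col26a1, Col28a1 and Col7a1, the last of which forms the anchoring fibrils of skin, were lower in culture than in acute ECs by adjusted p alone, from acute levels of at most 2.73 TPM. Col17a1, a hemidesmosome protein, was at most 0.151 TPM in any library.

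Stabilized cultures were compared with WT cultures to ask whether collagen expression in culture differs where beta-catenin is stabilized. The study found genes regulated by beta-catenin signaling to be extremely low in these stabilized cultures. It takes this to imply that signaling was not activated, so the comparison does not address raised signaling. Of 29 collagen genes tested, 0 were called higher and 0 lower by edgeR, with and without the fold and TPM criteria, against 0% of 12959 genes in each case. At an unadjusted p under 0.05, 2 collagen genes were higher and 0 lower, and DESeq2 called 0. That fit has no term for isolation method. With method as a covariate in the 36-cycle wells, 0 collagen genes were called, against 0.511% of all genes higher and 0.0774% lower. The largest differences among the abundant genes were those of Col4a2, 1.13 ± 0.37 on the log2 scale (adjusted p = 0.416), and Col18a1, 0.99 ± 0.41 (adjusted p = 0.456). Col4a1 differed by 0.75 ± 0.55 (adjusted p = 0.637), Col8a1 by 0.59 ± 0.31 (adjusted p = 0.521) and Col5a2 by 0.05 ± 0.64 (adjusted p = 0.983). The median was 0.44 over the collagen genes and -0.04 over all genes.

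The levels differed by isolation method. In TPM and in coding TPM, the 2 stabilized method A wells lay above all 6 WT wells for Col4a1, Col4a2, Col18a1 and Col8a1. The 2 stabilized method B wells lay within the range of the 6 WT wells for each of these. Set against the WT method B wells alone, they lay within the range in TPM but above every well in coding TPM. In coding TPM, Col4a1 was at 1300 and 1193 against at most 918, and Col4a2 at 715 and 686 against at most 573. Col18a1 was at 348 and 345 against at most 204, and Col8a1 at 27.2 and 31.1 against at most 21.4. Nuclear coding genes held 59.8 and 63.1% of the TPM in the stabilized method A wells, 35.3 and 45.7% in the WT method A wells and 39.2 and 36.9% in the stabilized method B wells. Within method A, 2 collagen genes were called higher, Col4a2 at 1.07 and Col1a1 at 1.71 on the log2 scale (edgeR, adjusted p = 0.000616 and 0.0105), against 5.39% of all genes, and 0 were called lower, against 0.918%. Within method B 0 were called higher and 0 lower, against 0.00763 and 0% of all genes. Within method A each arm is a single experiment. Within method B the stabilized arm is a single experiment, while the WT arm holds more than one. Stabilization and experiment therefore cannot be told apart, and in method A the arms also differ in strain.

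The stabilization effect itself differed between methods for 8 of 35 collagen genes by adjusted p alone, against 49.6% of all genes, in an interaction term over the 36-cycle wells. For Col4a2 the log2 effect was 1.06 in method A and 0.41 in method B (edgeR, adjusted p = 0.000807), and for Col1a1 it was 1.69 and -0.18 (adjusted p = 0.0136). For Col8a1 it was 0.14 and 0.48 (adjusted p = 0.0412), and for Col15a1 -0.15 and 0.98 (adjusted p = 0.0114). The other 4 were Col6a1, Col13a1, Col19a1 and Col28a1. For Col18a1 the effects were 0.53 and 0.80, with no difference past the threshold (adjusted p = 0.0755). Those of Col4a1 were 0.27 and 0.40 and those of Col5a2 -0.67 and -0.30. In methods A and B of this fit, the effects of Col18a1 passed the adjusted p (edgeR, 0.000464 and 0.000219). So did those of Col4a2 (1.75e-05 and 0.00233) and Col4a1 (0.0235 and 0.00837), whereas that of Col5a2 passed in method A alone (0.00443). Each arm within a method is a single experiment in this fit.

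The genes that make, export and bind collagen were followed as lists. Of 15 genes of hydroxylation and glycosylation, 7 were called higher in WT culture than in acute ECs and 1 lower, against 13.5 and 10.2% of all genes. P4ha2, a prolyl 4-hydroxylase subunit, was higher by 2.90 on the log2 scale (3.12 and 7.40 TPM in acute ECs, 13.1 to 48.6 in WT cultures), the cyclophilin Ppib by 1.77 and the prolyl 3-hydroxylase P3h1 by 1.59. Colgalt2, a collagen galactosyltransferase, differed by -5.11 (7.53 and 14.1 TPM in acute ECs, 0.249 to 1.49 in WT cultures). Of 9 chaperones and export genes, 6 were called higher and 0 lower, led by Fkbp10 (2.54), the COPII coat gene Sec13 (2.33), Fkbp14 (1.71) and Serpinh1 (1.55), which encodes the collagen chaperone HSP47. Serpinh1 was at 114 and 72.0 TPM in acute ECs and 285 to 1097 in WT cultures.

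Of 14 genes of procollagen proteases and crosslinking, 4 were called higher in WT culture and 0 lower. These were the lysyl oxidases Loxl2 (5.93) and Lox (4.02), the peroxidasin Pxdn (4.03), which crosslinks type IV collagen, and the procollagen protease Bmp1 (3.06). Lox was at 0.727 and 0.79 TPM in acute ECs and 15.7 to 55.2 in WT cultures, with no overlap. Of 10 receptor and uptake genes, 1 was called higher (Itgb1, 1.53) and 1 lower (Itga1, -2.15), which encode chains of collagen-binding integrins. Over all genes, 13.5% were called higher and 10.2% lower, which is the background of all 4 lists. The list medians were 1.32, 1.52, 4.03 and 0.88, in the order given, against 0.10 over all genes. Smooth muscle markers (5 genes, led by Acta2 and Tagln) summed to 503 to 3073 TPM in WT cultures and 236 and 216 in acute ECs, while Myh11, a defining one, was at most 3.11 TPM in cultures.

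Acute ECs against GFP-negative cells gave 3 of 15 hydroxylation and glycosylation genes called higher and 0 lower, Colgalt2 (4.18), Crtap (2.36) and Colgalt1 (2.1), where 8.3% of all genes were called higher and 7.56% lower. Of the 9 chaperones and export genes only Sparc was called higher (2.26), and 0 were lower. Of the 14 proteases and crosslinking genes, Pcolce (-2.89) and Lox (-2.64) were lower and 0 higher. Of the 10 receptors, Itga1 was higher (2.0) and Ddr1 (-5.39), Lair1 (-4.76) and Ddr2 (-2.33) were lower. In stabilized against WT cultures 0 genes of the 4 lists were called.

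Chromatin at the collagen promoters was examined to ask whether it was open before culture. A promoter was taken as 1 kb to either side of the annotated start of a protein-coding transcript, and as open where a MACS2 peak of that library passed a fold enrichment of 2 and a −log10 q of 2. In both acute EC libraries 11 of 44 collagen genes (25.0%) had an open promoter, against 54.2% of 21650 genes. In all 6 WT libraries it was 10 genes (22.7%, against 53.0%), and in both stabilized libraries 20 genes (45.5%, against 61.3%). The stabilized libraries were by method B. The 2 WT libraries of method A had 50395 and 33122 peaks and those of method B 84523 to 98732, and the acute ECs had 37384 and 31779. Collagen promoters were open in both method A libraries for 10 genes (22.7%, against 53.2%) and in all 4 method B libraries for 22 genes (50.0%, against 61.4%), and the part of peak number in these counts was not tested. In all, 28 genes had a promoter peak in any library and 16 had none.

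A peak lay within 1 kb of a start in all 10 libraries for 7 genes, and for 6 of them, Col1a1, Col4a1, Col4a2, Col18a1, Col23a1 and Col25a1, the peaks of the 10 libraries overlapped in one region. The shared start of Col4a1 and Col4a2 had a fold enrichment of 4.01 to 6.77 in the 10 libraries, and the internal start of the 545-base Col4a1 transcript had 12.5 and 13.0 in acute ECs and 8.06 to 12.1 in the cultures. The upstream Col18a1 start had 5.03 and 3.67 in acute ECs, 5.68 to 11.5 in WT and 7.08 and 9.04 in stabilized cultures. Col8a1, the seventh gene, had separate peaks. The peak at its start had 3.67 and 3.93 in acute ECs and 2.89 to 4.12 in 7 of the 8 culture libraries, and was not called in WT library 2. A second peak, 0.943 kb upstream of the start by the summit of the strongest library, was absent from both acute EC libraries and had 3.61 to 12.0 in all 8 culture libraries. The promoters of Col5a2 and Col12a1 had no peak in either acute EC library and a peak in all 8 culture libraries, with fold enrichments of 5.81 to 14.2 and 6.71 to 10.4. These counts were not tested between groups.

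**Figure D5:**
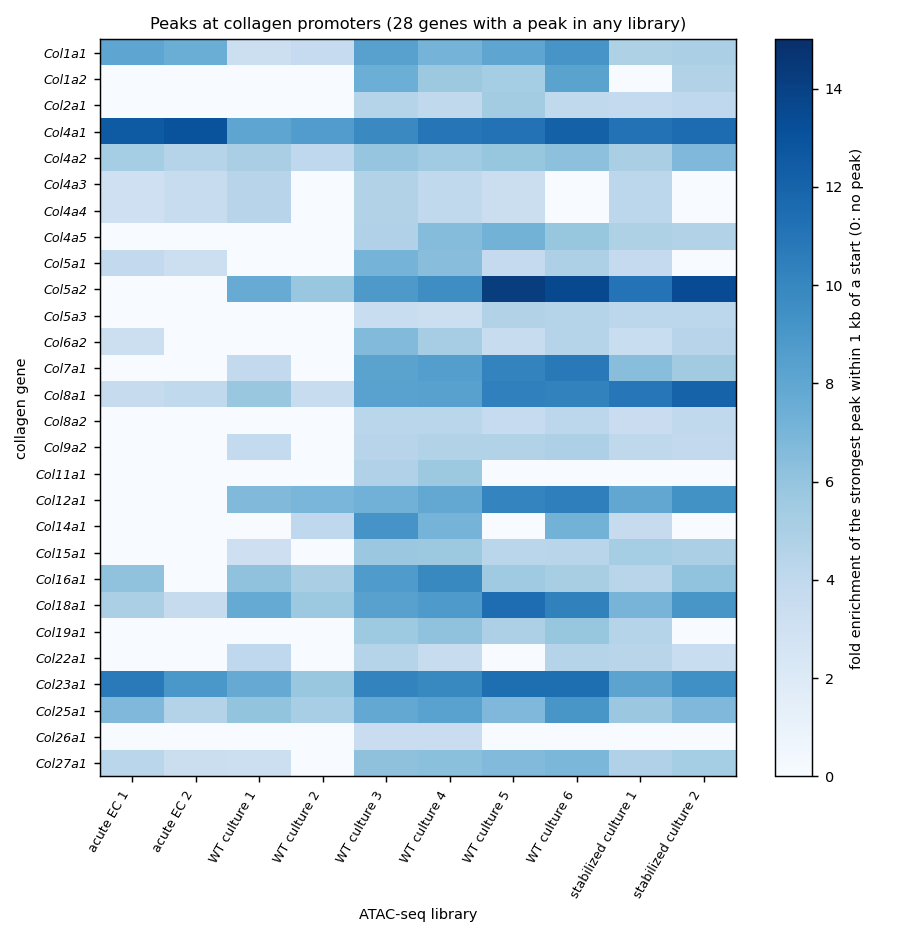
Fold enrichment (colour scale, 0 for no peak) of the strongest ATAC-seq peak within 1 kb of an annotated start, for the 28 collagen genes (rows) with a promoter peak in any of the 10 libraries (columns). Col5a2 and Col12a1 are blank in both acute EC columns and filled in all 8 culture columns.

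The promoters of the 2 genes called higher in culture for which RefSeq lists one are shown, as the bases before the annotated start on the strand of the gene (minus, GRCm38). Capitals mark GC boxes (GGGCGG on either strand), CCAAT boxes and TATAAA, none of which overlap. The Col18a1 start was open in all 10 libraries and the Col8a1 start in 9 of them, and the upstream Col8a1 peak seen only in culture lies outside the bases shown.
Col18a1, chr10:77166549-77166780: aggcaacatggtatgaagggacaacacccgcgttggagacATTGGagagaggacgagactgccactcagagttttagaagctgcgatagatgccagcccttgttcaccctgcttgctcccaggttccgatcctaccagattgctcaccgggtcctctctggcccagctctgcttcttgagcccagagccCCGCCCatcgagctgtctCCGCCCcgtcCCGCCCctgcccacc
Col8a1, chr16:57754738-57754987: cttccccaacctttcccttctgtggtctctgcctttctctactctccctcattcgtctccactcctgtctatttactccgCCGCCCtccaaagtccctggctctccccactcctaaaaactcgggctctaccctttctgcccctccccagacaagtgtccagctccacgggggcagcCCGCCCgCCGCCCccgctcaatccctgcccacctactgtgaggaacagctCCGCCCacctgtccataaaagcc
Col18a1 holds 3 GC boxes close to its start and 1 CCAAT box toward the far end of the bases shown. Col8a1 holds 4 GC boxes and no CCAAT box. Over the whole RefSeq windows of 250 bases before to 50 after a start, a GC box was present in 23 of 38 collagen promoters (60.5%) and 35.7% of all 32851. CCAAT was present in 13 (34.2%, against 37.4%), TATAAA in 5 (13.2%, against 13.6%) and CTTTGA, the core of the TCF/LEF motif, in 9 (23.7%, against 16.0%).

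Open regions within 10 kb of a collagen gene were also sorted by the libraries that held them. Of 425 such regions, 40 (9.41%) were present in all 8 culture libraries and in neither acute EC library, against 8.01% of all 126224 regions. A further 23 (5.41%, against 13.4%) were present in all 10 libraries, and 8 (1.88%, against 2.84%) in both acute EC libraries but in no culture. The regions present only in culture were 4 each at Col4a1 and Col4a2, 3 at Col5a2, 3 at Col12a1, 3 at Col27a1, 2 at Col8a1 and 1 at Col18a1, among others. The strongest lay in an intron of Col8a1, 82.9 kb into the gene from its start, with a median fold enrichment of 24.3 and a range of 14.9 to 27.4 over the 8 culture libraries. That of Col18a1 lay 14.8 kb into the gene at 11.7 (5.34 to 14.4), and the strongest of Col4a2 lay 59.4 kb into the gene at 10.6 (5.13 to 13.3).

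For each of the abundant genes, the 150 bases at the summit of its strongest region of this kind that touches no exon are shown, since these are the stretches whose state differed between acute ECs and culture. All are on the plus strand of GRCm38, and capitals mark the AP-1 motif TGANTCA and the TEAD motif GGAATG on either strand. The Col4a1 summit lies outside the gene, 125 kb from its start and beyond the 10 kb flank, which only the edge of the region reaches. The other summits lie inside their genes.
Col8a1, chr16:57671720-57671869: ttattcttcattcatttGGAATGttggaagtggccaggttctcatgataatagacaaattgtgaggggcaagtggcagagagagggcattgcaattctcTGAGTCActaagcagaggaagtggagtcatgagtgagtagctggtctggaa
Col18a1, chr10:77151718-77151867: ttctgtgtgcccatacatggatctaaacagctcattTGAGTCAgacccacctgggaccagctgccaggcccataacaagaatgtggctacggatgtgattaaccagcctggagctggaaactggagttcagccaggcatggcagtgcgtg
Col4a2, chr8:11372173-11372322: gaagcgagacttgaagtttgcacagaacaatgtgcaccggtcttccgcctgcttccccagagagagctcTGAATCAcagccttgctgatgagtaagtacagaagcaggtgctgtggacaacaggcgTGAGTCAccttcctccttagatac
Col4a1, chr8:11187668-11187817: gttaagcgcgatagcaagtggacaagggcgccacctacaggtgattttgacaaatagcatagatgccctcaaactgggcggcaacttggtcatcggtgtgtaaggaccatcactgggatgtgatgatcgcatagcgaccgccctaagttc
Col5a2, chr1:45490547-45490696: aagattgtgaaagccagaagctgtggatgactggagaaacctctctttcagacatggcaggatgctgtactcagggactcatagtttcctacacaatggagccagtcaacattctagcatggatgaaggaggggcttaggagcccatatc
The windows of Col8a1, Col18a1 and Col4a2 hold an AP-1 motif, that of Col8a1 also holds a TEAD motif, and those of Col4a1 and Col5a2 hold neither. An AP-1 motif lay in 19 of the 40 collagen windows (47.5%), against 46.6% of 10110 windows of regions present only in culture, 9.91% of 16894 present in all 10 libraries and 2.56% of 3561 present only in acute ECs. A TEAD motif lay in 6 of the 40 (15%), against 19.5, 8.05 and 7.69%.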

How the data were processed

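RNA-seq files were made by the authors with Salmon 0.14.0 on GENCODE M21 transcripts, and hold a deposited estimated count, effective length and TPM for each of 140198 transcripts. ATAC-seq reads were aligned by the authors with HISAT2 2.1.0 to GRCm38, and MACS2 2.1.2 was used to call peaks in each library. For each peak the deposited lists give a score, a fold enrichment, a −log10 p and a −log10 q, and the fold and −log10 q were used. Isolation methods follow the study's Methods and the genotype labels, from which a figure legend of the study differs for WT wells 5 and 6. Cerebrum-only samples were not analysed here. The title and protocol were followed for stabilized replicate 4, whose record names another molecule than RNA.

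Counts and TPM were summed per symbol, and 27 symbols stood for several identifiers. Counts were rounded and tested with edgeR 4.0.16 (R 4.3.3, filterByExpr, TMM, glmQLFit, glmQLFTest), each comparison on its own libraries. The procedure recovered large changes simulated in genes with ample counts, in independent libraries. The simulation held no well pairs, method or read-type effects, so it checks the code and not the power in these data. Fold limits for genes with 0 counts used 3 counts per group. Every collagen gene may be named, with full statistics for called genes and those of TPM 10 or more in any library, and for each other list the up to 4 called genes of largest change. Promoter sequences are from RefSeq on GRCm38 and matched 35 collagen genes. The genes and lists were chosen with earlier results of these data known. The alternatives tried included DESeq2 1.42.0 and limma 3.58.1.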

Additional observations from a re-analysis of the deposited data

Results flagged for a closer look

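Within the 6 WT cultures, well 2 stood apart from the others for 3 of the 44 collagen genes (gap to the nearest well over the group's range, above Dixon's critical value). Col5a3 was at 2.28 TPM there and at 0.815 to 1.34 in the other wells. Col6a3 was at 3.59 TPM against 0.209 to 1.46, and Col15a1 at 5.83 TPM against 0.853 to 2.69. In TPM rescaled over the nuclear protein-coding genes, none of the 3 passed (0 of 3). In all, 48 groups were examined, and chance alone marks about 1 in 20.

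The stabilization effect differed between isolation methods for 8 collagen genes by the interaction term (edgeR's quasi-likelihood test, adjusted p under 0.05, with 49.6% of all genes past the same threshold). The difference of method B from method A on the log2 scale was -0.65 for Col4a2, -1.87 for Col1a1, 0.34 for Col8a1 and 1.13 for Col15a1. It was -0.89 for Col6a1 (0.10 in method A, -0.79 in method B, adjusted p = 0.0378). Col13a1 gave 1.76 (-0.47 and 1.28, adjusted p = 0.0412), Col19a1 -3.02 (0.31 and -2.71, adjusted p = 0.0323) and Col28a1 3.47 (-0.12 and 3.36, adjusted p = 0.0366), all 3 at levels under 1 TPM in the cultures. Method, culture experiment and strain cannot be told apart in this term.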

How the results depend on the processing

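No value changed direction once called. For the 11 calls of single collagen genes, 172 of 192 recomputed values kept the call and 20 lost it. For the 94 uncalled results, 59 of 2031 values passed and 166 changed sign without a call. Without the TPM minimum, 11 collagen genes were higher and 8 lower in WT culture, and 4 were higher and 24 lower in acute ECs against GFP-negative cells. With method A wells only, 6 were higher in WT culture. The share over all genes is not given for this count, the leave-out counts or the replicate block in WT culture. These counts therefore bear on the processing alone. Genes called lower in WT culture numbered 0 to 2 on leaving out single libraries (1, Col14a1, without acute EC replicate 1, and 2, Col4a4 and Col9a3, without acute EC replicate 2). Calls higher in acute ECs than in GFP-negative cells fell from 2 to 1 with an offset for transcript length, with limma on log2(TPM + 1), with protein-coding transcripts only and with all 14 libraries in one fit, and to 0 with limma on log2(coding TPM + 1), an alternative chosen after seeing the data. The cause was not tested. In the interaction term, 5 genes passed with protein-coding transcripts only, and 4 (without WT culture replicate 5) to 13 (without stabilized culture replicate 1) on leaving out single wells, all chosen after seeing the data. At a −log10 q over 10, open collagen promoters fell to 5 in acute ECs, 3 in WT and 12 in stabilized cultures. These were 11.4, 6.82 and 27.3% of the collagen genes, against 51.2, 44.8 and 57.3% of all genes. Scaling by library size alone moved the median of all genes in culture from 0.10 to 0.30 and in acute ECs against GFP-negative cells from -0.06 to -0.44, and left the calls at 3 and 0 and at 2 and 6.

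In the comparisons with cultures the genotypes differ, so the replicate numbers do not mark shared animals there. For acute ECs against GFP-negative cells it is not stated whether they do. The correlations of same-numbered deviations were -0.05 and 0.04 for culture and 0.08 for acute ECs against GFP-negative cells. With 2 libraries per group the deviations mirror each other, so the latter value cannot show whether the libraries pair. For stabilization the correlations were 0.57, 0.56, 0.05 and 0.12, where 3 of 4 stabilized wells correlated best with their own number. With the replicate block, 1 collagen gene was called higher in stabilized culture (Col4a2, 1.35), 149 of all genes were higher and 24 lower, and in WT culture 4 collagen genes were higher, Col4a1 (1.94) being added. Stabilization called 2 collagen genes within method A, where 692 of all genes were higher and 118 lower, against 1 and 0 within method B, 138 and 37 in its 36-cycle wells, 66 and 10 with method as a covariate, 15 and 3 with DESeq2 and 0 in the fit reported. Depth sets the limits given for genes with 3 counts or fewer in a group.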

Other observations

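The ratio of the full-length transcripts of Col4a1 and Col4a2, whose chains are usually joined 2 to 1 in the common type IV trimer, was read per library as a ratio of TPM. It was 0.739 and 0.840 in GFP-negative cells and 0.268 and 0.467 in acute ECs. In WT cultures it was 3.13 and 2.91 in the method A wells and 1.23 to 1.60 in the method B wells, and in the stabilized wells 1.88, 1.64, 1.52 and 1.49. The 2 WT wells of method A stood above all 8 other cultures, and all 10 cultures stood above the acutely isolated cells.

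The ratio of the full-length transcripts of Col1a1 and Col1a2, the chains of type I collagen, was 0.260 and 0.288 in GFP-negative cells, 0.116 and 0.0396 in acute ECs, 0.295 and 0.355 in the WT method A wells and 0.871 to 1.90 in every other culture. The part of read type and of transcript assignment in both ratios was not tested.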
